A study of Homo sapiens with 6 samples.

Results

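The group described here is made of genes for the spliceosome, its small nuclear ribonucleoproteins (snRNPs) and the heterogeneous nuclear ribonucleoproteins (hnRNPs). Its members are the genes whose symbol, on probes that name 1 gene in the platform annotation, starts with HNRNP, SNRP, U2AF, PRPF, PTBP, LSM and a digit or SF3A or SF3B and a digit, or is SF1. The rule found 55 of 8987 genes, on 111 of 11304 single-gene probes. Of the 55, 53 had at least 1 probe measured on all 5 arrays compared and could be tested. HNRNPA2B1 and SNRPF could not.

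The study followed GM00156, a human cell line of the Coriell repository whose cell type the labels do not give. Cells were kept with or without 100 µg/ml emetine, which stops ribosomes on the mRNA, for 10 h. Actinomycin D at 5 µg/ml, which stops RNA synthesis, was then added to treated and untreated cells alike, and both were collected after 0 min, 10 min, 30 min, 1 h and 8 h. Each of 5 two-colour arrays set mRNA of emetine-treated cells (Cy3) against mRNA of untreated cells (Cy5) of 1 harvest, and on a sixth, the self-self array, treated RNA of the 0 min harvest stood on both sides, without a mention of actinomycin D. Every condition had 1 array, and precision is limited by how few arrays there are. The harvests may share 1 pair of cultures, and p-values then measure only the spread between these arrays, which may be technical.

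The values are log2 ratios of the 2 channels. The labels do not say which channel is the numerator, so values are called positive or negative, which says nothing of which cells had more of a transcript. For the 0 min array the labels conflict: by its channel names it compares treated with untreated RNA, by its description treated RNA with itself. On this array the robust SD over all genes was 0.42, against 0.11 on the self-self array. The 10 min array had 0.88, the 30 min array 0.76, the 1 h array 0.50 and the 8 h array 0.83. Without the 0 min array 18 members were called positive and 16 negative in the comparison of means below, beside 18 and 17 with it.

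In splicing, the U1 snRNP marks the start of an intron, SF1 and U2AF mark its branch point and end, the U2 snRNP replaces SF1, and a complex of U4, U6 and U5 snRNPs brings in the catalytic core. Each snRNP holds a short RNA in a ring of Sm proteins, or of the related LSm proteins for U6, and a sister LSm ring acts in mRNA decay in the cytoplasm. The hnRNP and PTBP proteins coat nascent RNA and repress or promote the use of nearby exons. Several of them are known to control their own level through exons that bring in an early stop codon, which makes the mRNA a target of nonsense-mediated decay, a process that needs translation.

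Promoters are shown, as examples only, for the 2 highest and the 2 lowest members of the comparison below. Only members that passed its test and have a single entry in the promoter table were taken. So few promoters cannot show whether the sides differ. The sequences are from RefSeq (GRCh38.p14), run 5′ to 3′ on the gene's strand from 250 bases before to 50 bases after the start, and lie at chr1:108692060-108692359, plus strand, for PRPF38B, at chr1:96722388-96722687, plus strand, for PTBP2, at chr6:31806917-31807216, minus strand, for LSM2 and at chr5:178204283-178204582, plus strand, for HNRNPAB. Capitals mark matches on either strand to TATAAA (the core of a TATA box), CCAAT (the core of a CCAAT box) or CCGGAAG (a core bound by ETS factors), none of which overlap here.
PRPF38B: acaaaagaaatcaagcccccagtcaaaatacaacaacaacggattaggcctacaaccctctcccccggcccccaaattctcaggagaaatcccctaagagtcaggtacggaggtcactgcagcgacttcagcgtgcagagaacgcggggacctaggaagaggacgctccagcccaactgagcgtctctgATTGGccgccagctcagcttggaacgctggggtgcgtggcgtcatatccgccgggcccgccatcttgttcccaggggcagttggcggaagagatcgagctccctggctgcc
PTBP2: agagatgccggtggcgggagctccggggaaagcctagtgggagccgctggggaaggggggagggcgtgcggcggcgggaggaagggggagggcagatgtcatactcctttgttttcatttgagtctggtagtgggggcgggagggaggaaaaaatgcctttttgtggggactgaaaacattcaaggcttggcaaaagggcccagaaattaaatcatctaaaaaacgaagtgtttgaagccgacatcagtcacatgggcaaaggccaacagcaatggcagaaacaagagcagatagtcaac
LSM2: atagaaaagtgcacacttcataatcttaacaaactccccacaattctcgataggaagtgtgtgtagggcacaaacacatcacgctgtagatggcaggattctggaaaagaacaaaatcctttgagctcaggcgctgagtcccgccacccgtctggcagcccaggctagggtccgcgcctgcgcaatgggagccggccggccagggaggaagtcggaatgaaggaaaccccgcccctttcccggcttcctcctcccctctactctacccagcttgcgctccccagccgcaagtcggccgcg
HNRNPAB: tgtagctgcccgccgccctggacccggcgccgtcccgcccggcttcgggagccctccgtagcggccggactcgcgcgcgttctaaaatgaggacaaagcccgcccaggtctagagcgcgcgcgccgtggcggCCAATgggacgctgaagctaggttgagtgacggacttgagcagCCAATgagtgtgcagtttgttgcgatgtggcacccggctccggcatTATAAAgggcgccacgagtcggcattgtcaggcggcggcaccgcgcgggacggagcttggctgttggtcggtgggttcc
HNRNPAB holds 1 TATAAA and 2 CCAAT matches, PRPF38B 1 CCAAT match, and PTBP2 and LSM2 none of the letters searched. Of the 55 members 47 matched the promoter table. TATAAA stood in 4 of the 47 (8.51%) against 14.0% of all 27305 genes of the table, CCAAT in 26 (55.3%) against 39.7%, and CCGGAAG in 15 (31.9%) against 12.2%. Among members called positive below and matched, CCAAT stood in 7 of 14 and CCGGAAG in 4, and among those called negative in 10 of 16 and in 3. These counts describe letters in the window and were not tested. A gene with several promoters, as 12 of the 47 members had, counted if any of them held the letters. The 27305 genes were not limited to those on the arrays.

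The first comparison, the log2 ratio averaged over the 5 harvests, addresses differences between treated and untreated cells over the whole course. The members split about evenly between the sides. PRPF38B and PTBP2 led the positive side at 1.84 and 1.54, and HNRNPA1 and LSM2 the negative side at -1.25 and -1.22. The hnRNP and PRPF classes held calls on both sides, as did the LSm class, where LSM14A was the positive one. The calls of the PTBP and U2 classes and that of U2AF1 were positive, and those of the U1 and Sm classes negative; no difference between classes was tested. By limma, with Benjamini-Hochberg adjustment over all 8748 genes and a threshold of 0.05, 18 of 53 members (34.0%) were positive, where 37.0% of all genes were, and 17 (32.1%) were negative, where 25.3% of all genes were. The remaining 18 did not pass, so 66.0% of members and 62.4% of all genes were called on either side. A mean of at least 1 with a call was held by 6 members (9.52% of all genes) and one of -1 or lower with a call by 3 (4.74% of all genes). All 5 harvests were positive for 21 members (37.8% of all genes) and negative for 17 (25.4% of all genes). The members' median was 0.15 beside 0.14 for all genes; without the 8 h array these were -0.01 and 0.11. With each array centred on its median the medians were 0.06 and 0.04, with 16 members positive and 19 negative beside 2646 and 2612 of the 8748 genes.

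These calls are against a ratio of 0. When the fit also held the self-self array and tested the harvests against it, which takes that lone array to be as variable as a harvest, no member passed and the lowest adjusted p among them was 0.157 (limma); of all genes 1 passed. With each gene's self-self value subtracted instead, 20 members were positive and 15 negative. Members called negative had self-self values from -0.22 to 0.10 with a median of -0.13, below 0 in 14 of 17, and members called positive from -0.10 to 0.23 with a median of 0.02, below 0 in 8 of 18. Over all genes the negative calls had a self-self median of -0.06, with 1577 of 2217 below 0, and the positive calls one of 0.05, with 1049 of 3240 below 0. In RNA of whole cultures, fewer cells of a kind and less RNA per cell cannot be told apart. The part of this small shift in the calls was not tested beyond these fits.

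**Figure D1:**
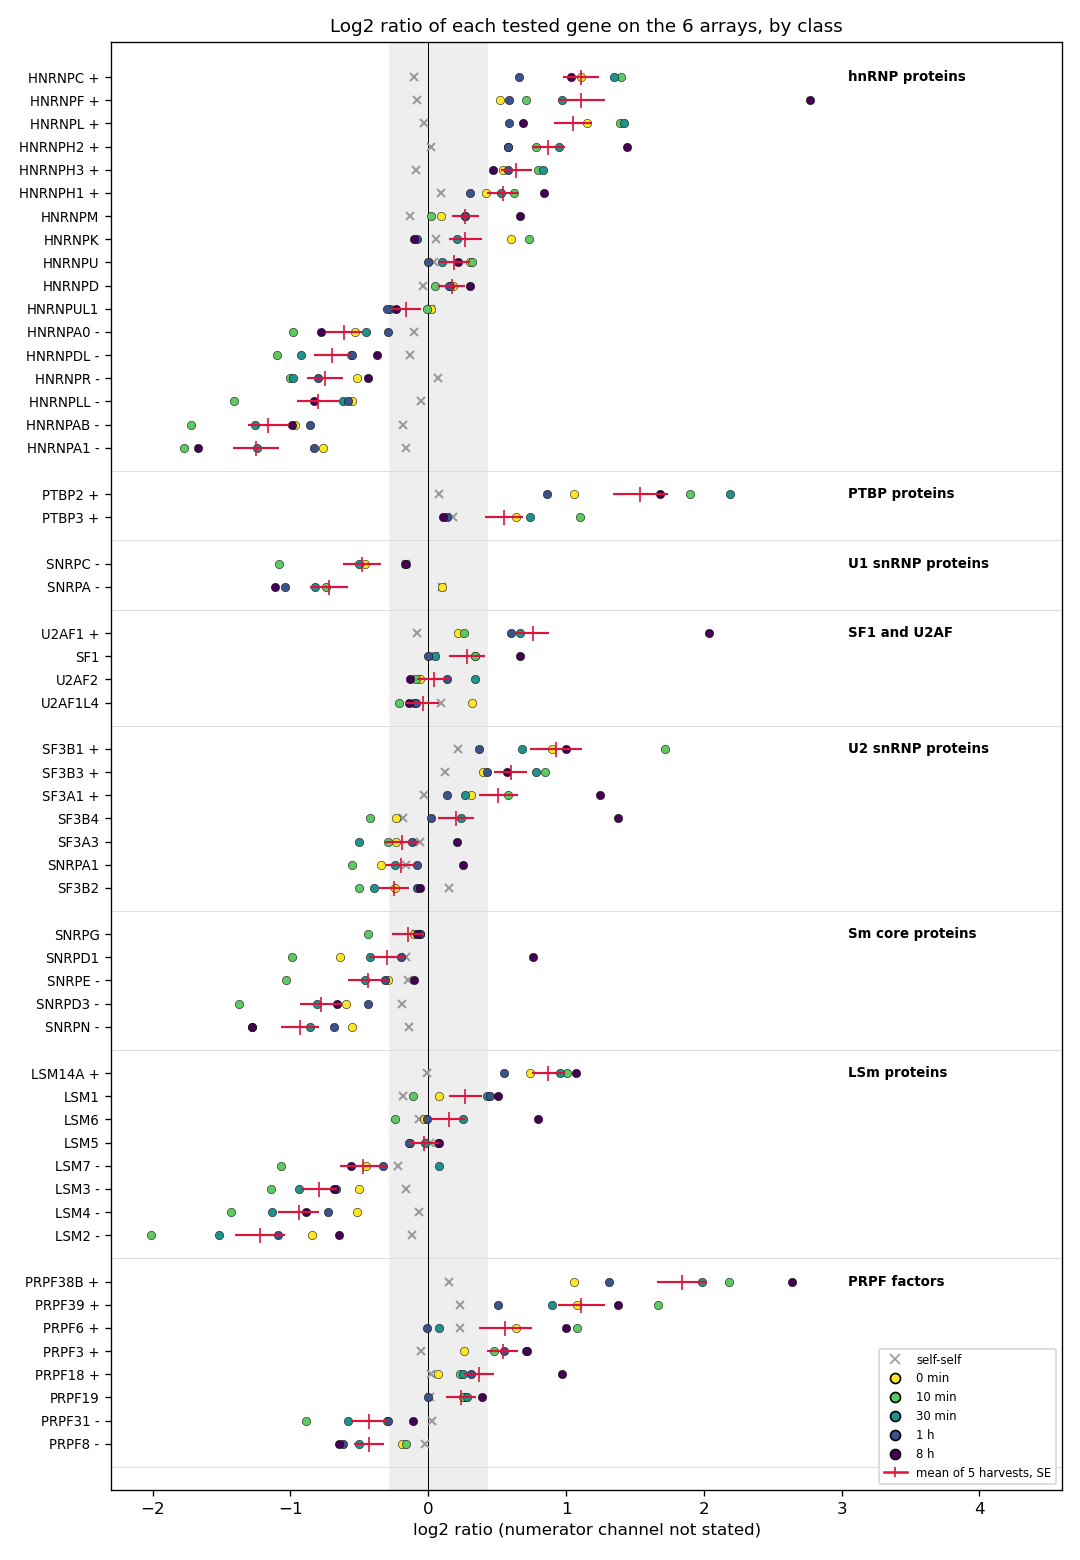
Log2 ratios of the 53 tested genes on the 6 arrays (x axis), 1 row a gene, grouped by class and ordered by mean. Circles are the 5 harvests, grey crosses the self-self array, red bars the mean over the harvests with its SE from limma, the grey band the central 99% of the self-self array (-0.28 to 0.43), and + or - after a name marks a call. Values reach 2.77 for HNRNPF at 8 h and -2.01 for LSM2 at 10 min, while the self-self values of all rows lie inside the band.

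The hnRNP class had as many positive as negative calls. Of 17 tested genes 6 were positive, 6 negative and 5 did not pass, with a median of 0.19 beside 0.14 for all genes. Class counts here and below stand beside 37.0% positive and 25.3% negative among all genes, and no class was tested against these shares. HNRNPC, which binds uridine tracts of nascent transcripts, stood at 1.11, 1.40, 1.35, 0.66 and 1.04 on the harvests in order of time, and at -0.10 on the self-self array. Later series of 5 values follow the same order, with the self-self value after them. Its mean was 1.11 (SE 0.13, 5 arrays, limma adjusted p = 0.000519). All 5 harvests were positive and beyond the self-self value, with the lowest at 1 h. HNRNPF, which binds runs of guanines, stood at 0.52, 0.71, 0.97, 0.59 and 2.77 against -0.08, with a mean of 1.11 (SE 0.17, limma adjusted p = 0.00115). Its first 4 harvests lay close together and the 8 h array stood far above them; without that array the mean was 0.70. HNRNPL, which binds CA repeats, stood at 1.15, 1.39, 1.42, 0.59 and 0.69 against -0.03, with a mean of 1.05 (SE 0.14, limma adjusted p = 0.000617).

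The relatives of HNRNPF that also bind guanine runs lay on its side. HNRNPH2 stood at 0.58, 0.78, 0.95, 0.58 and 1.44 against 0.02 (mean 0.87, SE 0.12, limma adjusted p = 0.000772). HNRNPH3 stood at 0.54, 0.80, 0.83, 0.58 and 0.47 against -0.09 (mean 0.64, SE 0.11), and HNRNPH1 at 0.42, 0.62, 0.53, 0.30 and 0.84 against 0.09 (mean 0.54, SE 0.11). The 2 HNRNPH3 probes had means of 0.36 and 0.93, both called positive. All 4 genes of this family were positive on 5 of 5 harvests, as were 2940 of all 3240 genes called positive. HNRNPH1 and HNRNPH2 are near-identical in sequence, and a probe for one may pick up the other.

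On the negative side, HNRNPA1, a shuttling protein that silences exons, stood at -0.76, -1.77, -1.24, -0.83 and -1.67 against -0.16 on the self-self array. Its mean of -1.25 (SE 0.17, limma adjusted p = 0.000665) was the lowest of all members. HNRNPAB stood at -0.97, -1.72, -1.26, -0.86 and -0.99 against -0.18, with a mean of -1.16 (SE 0.15, limma adjusted p = 0.000547). Both were lowest at 10 min, and HNRNPA1 came back to nearly that value at 8 h while HNRNPAB did not. HNRNPLL, a paralog of HNRNPL, stood at -0.55, -1.41, -0.62, -0.58 and -0.83 against -0.05 (mean -0.80, SE 0.15). HNRNPR stood at -0.52, -1.0, -0.98, -0.80 and -0.44 against 0.07 (mean -0.75, SE 0.13), HNRNPDL, a relative of HNRNPD, at -0.56, -1.10, -0.92, -0.55 and -0.37 against -0.13 (mean -0.70, SE 0.13), and HNRNPA0 at -0.53, -0.98, -0.45, -0.29 and -0.78 against -0.10 (mean -0.61, SE 0.13). All 6 negative genes were negative on 5 of 5 harvests and lowest at 10 min. Over all genes, 1981 of the 2217 called negative were negative on 5 of 5 harvests, and the 10 min array had the widest spread.

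The 5 hnRNP genes that did not pass had means from -0.16 for HNRNPUL1 to 0.27 for HNRNPM and HNRNPK. HNRNPD, also known as AUF1, which binds AU-rich elements of unstable mRNAs, stood at 0.18, 0.05, 0.16, 0.15 and 0.30 (mean 0.17, SE 0.10, limma adjusted p = 0.191). HNRNPK, which binds cytosine-rich RNA, stood at 0.60 and 0.73 at 0 and 10 min, at 0.21 at 30 min and at -0.08 and -0.10 at 1 and 8 h; it passed without the 1 h array, at a mean of 0.36, and with arrays scaled to equal spread, at 0.31. HNRNPM passed without the 0 min array, at 0.31, without the 10 min array, at 0.33, with equal spread, at 0.26, and after self-self subtraction, at 0.39. HNRNPA2B1, the near relative of HNRNPA1, was not measured at 10 min and stood at -0.08, -0.28, -0.12 and -0.72 on the other 4 harvests and at 0.11 on the self-self array.

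For HNRNPU, which attaches RNA and chromatin to the nuclear scaffold, the average hides a disagreement. One of its probes stood at 0.87, 1.59, 1.07, 0.59 and 0.94 (mean 1.01, limma adjusted p = 0.00109 over all probes) and the other at -0.27, -0.95, -0.87, -0.59 and -0.51 (mean -0.64, adjusted p = 0.00500), and both carry the same accession in the annotation. The gene's mean of 0.19 (SE 0.11) therefore describes neither probe. Of 18 members with more than 1 probe measured on all harvests, 13 had probe means within 0.5 of each other, and 2, HNRNPU and U2AF1L4, had probes called on both sides.

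Some members were spotted 8 times or more from 1 accession, as were 71 genes of the whole array, which shows the error within an array. The 9 spots of HNRNPA1 had an SD from 0.04 to 0.09 on each of the 6 arrays and lay between -1.84 and -1.54 at 10 min. The 8 spots of SF3A1 had an SD from 0.03 to 0.09, and the 10 spots of HNRNPC an SD from 0.09 to 0.36, none of them below 0.34 on any harvest. At every harvest all spots of HNRNPA1 were negative and all of HNRNPC positive. These are the repeatedly spotted members with the lowest and the highest mean, so this lack of overlap follows largely from the choice. Spots of HNRNPD were of both signs at 10 min, from -0.39 to 0.2. The median SD over these genes and arrays was 0.10. The fitted SEs were 0.17 for HNRNPA1 and 0.13 for HNRNPC. They come from the spread between harvests, drawn by limma towards a value shared by all genes. Spots of 1 array share their RNA and labelling and are not replicates of a condition.

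**Figure D2:**
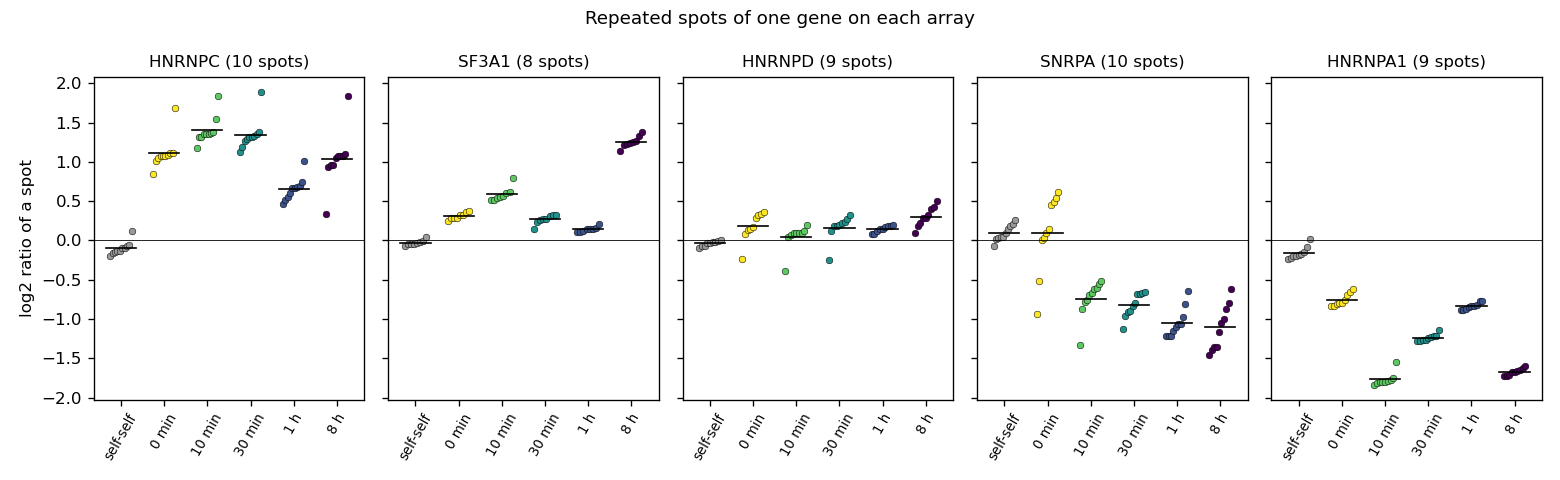
Log2 ratio of every spot (y axis) of the 5 members spotted at least 8 times from 1 accession, on the 6 arrays (x axis), with the mean of the spots as a black bar. Spots of HNRNPA1 and SF3A1 lie close together on each array, while those of SNRPA at 0 min run from -0.94 to 0.62.

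Both PTBP genes tested were positive. PTBP2, the neuronal form of the polypyrimidine tract binding protein, stood at 1.06, 1.90, 2.19, 0.86 and 1.68 against 0.08 on the self-self array, with a mean of 1.54 (SE 0.20, 5 arrays, limma adjusted p = 0.000638). PTBP3 stood at 0.64, 1.10, 0.74, 0.14 and 0.11 against 0.18, with a mean of 0.55 (SE 0.14, limma adjusted p = 0.00944). At 1 and 8 h PTBP3 lay below its own self-self value, while PTBP2 stayed above its own on all 5 harvests.

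A list of 8 genes known for nonsense-mediated decay of their own or each other's splice forms was set beside these values. It had 5 tested members, 2 of them positive (PTBP2 and HNRNPL), 2 negative (HNRNPLL and HNRNPDL) and 1 that did not pass (HNRNPD), with a median of 0.17 beside 0.14 for all genes. PTBP1 and SNRPB, the other genes of the list with HNRNPA2B1, were not analysed here.

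Both U1 snRNP genes of the group were negative. SNRPA, which binds a stem loop of U1 RNA, stood at 0.10, -0.74, -0.82, -1.04 and -1.11, with a self-self value of 0.10 (mean -0.72, SE 0.14, limma adjusted p = 0.00286). At 0 min it stood at its self-self value and on the 4 later harvests it was negative. Its 10 spots spread most at 0 min (SD 0.50), where 8 lay between 0.01 and 0.62 and the other 2, singled out after their values were seen, at -0.51 and -0.94. SNRPC, which contacts the 5′ splice site, stood at -0.46, -1.08, -0.50, -0.16 and -0.17 against -0.16 (mean -0.48, SE 0.14, limma adjusted p = 0.0178). At 1 and 8 h SNRPC lay at its self-self value. Its call was lost without the 10 min array (mean -0.33), without the 30 min array (-0.47) and after self-self subtraction (-0.31). SNRNP70, the remaining U1-specific protein, is outside the rule and was named after its values were seen; it was positive at 0.52 (SE 0.11, limma adjusted p = 0.00527).

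Among the genes for branch point and 3′ splice site recognition, 1 of 4 passed. U2AF1, the small U2AF subunit that reads the AG at the intron's end, stood at 0.22, 0.26, 0.67, 0.60 and 2.04 against -0.08, with a mean of 0.76 (SE 0.12, limma adjusted p = 0.00143). The 8 h value stood far above the others, and without that array the mean was 0.44. U2AF2, the large subunit that binds the polypyrimidine tract, stood at -0.06, -0.09, 0.34, 0.14 and -0.13 (mean 0.04, SE 0.12) and SF1, the branch point binding protein, at 0.34, 0.34, 0.05, 0.00 and 0.67 (mean 0.28, SE 0.13). The SF1 values average probes with means of 0.03, 0.29 and 0.53. The probe at 0.53 passed on its own (limma adjusted p = 0.0247 over all probes) and the others did not. U2AF1L4, a paralog of U2AF1, averaged -0.04 over probes with means of 0.42 and -0.50.

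Of 7 U2 snRNP genes 3 were positive, none was negative by the same test and 4 did not pass; the class median was 0.20, near that of all genes. SF3B1, the largest protein of the SF3b complex that clamps the branch point helix, stood at 0.90, 1.72, 0.68, 0.37 and 1.00 against 0.22, with a mean of 0.93 (SE 0.19, 5 arrays, limma adjusted p = 0.00338). SF3B3 stood at 0.40, 0.85, 0.78, 0.43 and 0.57 against 0.12 (mean 0.60, SE 0.12). SF3A1, of the SF3a complex, stood at 0.31, 0.58, 0.27, 0.14 and 1.25 against -0.03 (mean 0.51, SE 0.14, limma adjusted p = 0.0146); its call was lost without the 8 h array, at a mean of 0.33. SF3B4 stood at -0.23, -0.42, 0.24, 0.02 and 1.38 against -0.18 (mean 0.20, SE 0.13). A second SF3B4 probe, left out because it was not measured at 30 min and 1 h, stood at -0.27, -0.43 and 1.40 on the remaining harvests. The lowest of the class was SF3B2 at -0.24, -0.50, -0.39, -0.08 and -0.06 (mean -0.25, SE 0.11). SNRPA1, another U2 protein, at -0.20 and SF3A3 at -0.19 followed, and none of these passed in the main fit. SF3B2 passed on the negative side with equal spread, at -0.26, with each array centred, at -0.35, and after self-self subtraction, at -0.41. SNRPA1 passed with equal spread, at -0.22, and SF3B4 was positive after self-self subtraction, at 0.38.

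The Sm core genes, whose proteins form the ring of the U1, U2, U4 and U5 snRNPs, had a median of -0.44. Of 5 tested, 3 were negative and 2 did not pass. SNRPN, a near copy of SNRPB, stood at -0.55, -1.28, -0.86, -0.68 and -1.28 against -0.14 (mean -0.93, SE 0.14, 5 arrays, limma adjusted p = 0.000935). SNRPD3 stood at -0.60, -1.37, -0.81, -0.44 and -0.66 against -0.19 (mean -0.78, SE 0.15, limma adjusted p = 0.00286), and SNRPE at -0.29, -1.03, -0.46, -0.31 and -0.10 against -0.15 (mean -0.44, SE 0.14). SNRPE did not pass without the 10 min array (-0.29), without the 30 min array (-0.43) or after self-self subtraction (-0.29). SNRPG, the highest of the class, stood at -0.10, -0.44, -0.06, -0.06 and -0.08 (mean -0.15, SE 0.11). SNRPD1 was negative on the first 4 harvests, at -0.64, -0.99, -0.42 and -0.20, and positive at 8 h, at 0.76; its mean was -0.30 (SE 0.13) and passed without the 8 h array, at -0.56, with each array centred, at -0.40, and with equal spread, at -0.37. SNRPF, measured on 3 harvests, stood at -1.61 at 0 min, 0.35 at 30 min and -0.39 at 8 h.

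The 8 LSm genes had a median of -0.25, with 4 negative, 1 positive and 3 not passed. LSM2, a subunit of both the nuclear and the cytoplasmic ring, stood at -0.84, -2.01, -1.52, -1.09 and -0.65 against -0.12, with a mean of -1.22 (SE 0.18, 5 arrays, limma adjusted p = 0.00103). LSM4 stood at -0.52, -1.43, -1.13, -0.73 and -0.89 against -0.07 (mean -0.94, SE 0.15), and LSM3 at -0.50, -1.14, -0.94, -0.67 and -0.68 against -0.16 (mean -0.79, SE 0.13). These 3 genes were negative on 5 of 5 harvests, as were 1981 of all 2217 genes called negative. They were lowest at 10 min, on the array with the widest spread over all genes. LSM7 stood at -0.45, -1.07, 0.08, -0.33 and -0.56 against -0.22 (mean -0.47, SE 0.17, limma adjusted p = 0.0387); it did not pass without the 0 min, 10 min or 8 h array (-0.47, -0.31 and -0.44) or after self-self subtraction (-0.25). LSM5 and LSM6, of the same rings, had means of -0.03 and 0.15 and did not pass. LSM1, found in the cytoplasmic ring alone, stood at 0.08, -0.11, 0.43, 0.45 and 0.51 (mean 0.27, SE 0.12) and passed without the 10 min array, at 0.37, with equal spread, at 0.29, and after self-self subtraction, at 0.45. LSM14A, a larger protein of cytoplasmic mRNP granules, was the positive one at 0.74, 1.01, 0.96, 0.55 and 1.07 against -0.01 (mean 0.87, SE 0.12, limma adjusted p = 0.000772).

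Of the 8 PRPF genes 5 were positive, 2 negative and 1 did not pass, with a median of 0.45. PRPF38B, a relative of the yeast splicing factor Prp38, stood at 1.06, 2.18, 1.99, 1.31 and 2.64 against 0.15 on the self-self array. Its mean of 1.84 (SE 0.18, 5 arrays, limma adjusted p = 0.000462) was the highest of all members and lay at the 97.2 percentile of all genes. PRPF39, a U1-associated factor, stood at 1.08, 1.67, 0.90, 0.51 and 1.38 against 0.23 (mean 1.11, SE 0.17, limma adjusted p = 0.00123). PRPF3, of the U4/U6 snRNP, stood at 0.26, 0.48, 0.71, 0.55 and 0.72 against -0.05 (mean 0.54, SE 0.11).

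The other positive calls of this class were less firm. PRPF6, which bridges the U5 and U4/U6 snRNPs, stood at 0.64, 1.08, 0.08, -0.01 and 1.00 against 0.23 (mean 0.56, SE 0.19, limma adjusted p = 0.0316). It did not pass without the 0 min, 10 min or 8 h array (0.54, 0.43 and 0.45), nor with each array centred (0.46) or after self-self subtraction (0.33). PRPF18, a factor of the second catalytic step, stood at 0.07, 0.23, 0.25, 0.31 and 0.97 against 0.02 (mean 0.37, SE 0.11, limma adjusted p = 0.0177); its call was lost without the 30 min array (0.40), without the 8 h array (0.22), with each array centred (0.27) and with no slope in the fit (0.37). PRPF8, the core protein of the catalytic centre, stood at -0.19, -0.16, -0.50, -0.62 and -0.65 against -0.02 (mean -0.43, SE 0.11, limma adjusted p = 0.0105). PRPF31, of the U4/U6 snRNP, stood at -0.30, -0.89, -0.58, -0.29 and -0.11 against 0.03 (mean -0.43, SE 0.13, limma adjusted p = 0.0195) and did not pass without the 10 min array (-0.32) or the 30 min array (-0.40). PRPF19, a ubiquitin ligase that activates the spliceosome, had a mean of 0.24 (SE 0.11) and did not pass.

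**Figure D3:**
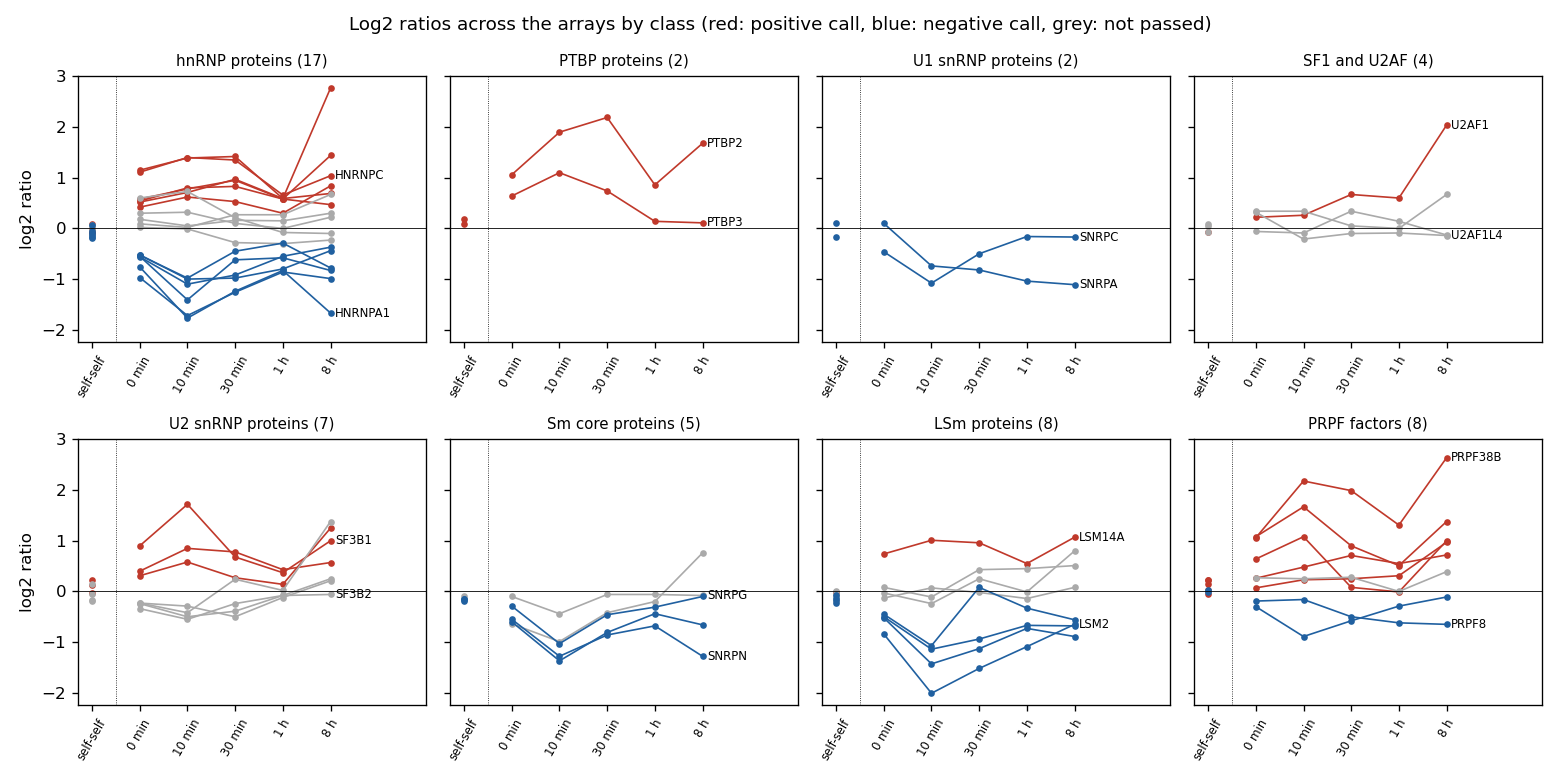
Log2 ratios (y axis) of the tested genes on the self-self array and the 5 harvests (x axis, not to scale in time), 1 panel a class with its number of genes, 1 line a gene over the harvests and an unjoined point on the self-self array; red lines were called positive, blue negative, and grey did not pass. The highest and lowest gene by mean is named in each panel. Of members, called or not, 49.1% were farthest from 0 at 10 min, beside 36.9% of all genes. At 8 h these shares were 35.8% and 37.2%. Of the 17 negative members 14 were farthest from 0 at 10 min, and of the 18 positive members 9 were so at 8 h. For these called groups no share over all genes was taken, so they cannot be set against called genes in general. The 10 min array had the widest spread over all genes (robust SD 0.88).

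Related genes did not always lie on one side. Of the pairs of paralogs listed for comparison, 6 had both genes tested, and each was compared by its difference on the 5 harvests with a two-sided exact sign-flip permutation test, which cannot go below p = 0.0625 with 5 arrays. HNRNPL lay above HNRNPLL on 5 of 5 harvests, by a mean of 1.85 (SD 0.62; exact p = 0.0625, adjusted over the 6 pairs p = 0.0750). HNRNPD lay above HNRNPDL on 5 of 5 by 0.87 (SD 0.23), U2AF1 above U2AF2 on 5 of 5 by 0.72 (SD 0.81) and HNRNPU above HNRNPUL1 on 5 of 5 by 0.35 (SD 0.07), each at the same exact p-values. HNRNPH1 lay below HNRNPF on 5 of 5, with a difference of -0.57 (SD 0.77). HNRNPH1 and HNRNPH3 differed by -0.10 (SD 0.28; exact p = 0.438), with differences from -0.30 to 0.38. No pair passed a threshold of 0.05, which this design does not allow. The difference for HNRNPU rests on the average of its probes that disagree: its negative probe lay below the HNRNPUL1 average on 5 of 5 harvests. For U2AF1 and for HNRNPF the 8 h array carried much of the difference, the largest single differences being 2.17 and -1.92.

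Each array was also set against the spread of an array with the same RNA on both sides, without a test. On the self-self array 99% of 8725 genes lay in a central range of -0.28 to 0.43. In order of time, the 5 harvests had 13 members (20.3% of all genes), 17 (35.9%), 16 (35.9%), 13 (21.6%) and 23 (36.6%) above this range. They had 17 members (21.4% of all genes), 22 (33.7%), 20 (29.8%), 17 (26.7%) and 14 (28.9%) below it. As shares of the 53 members the counts above were 24.5%, 32.1%, 30.2%, 24.5% and 43.4%, and those below 32.1%, 41.5%, 37.7%, 32.1% and 26.4%. The members' share was above that of all genes on both sides at 0 min and 1 h, on the lower side at 10 and 30 min and on the upper side at 8 h; none of these differences was tested. No member lay outside the range on the self-self array itself, where members ran from -0.22 to 0.23.

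Beyond the range on all 5 harvests were 9 members on the positive side (12.2% of all genes) and 11 on the negative side (13.1% of all genes). The 9 were HNRNPC, HNRNPF, HNRNPH2, HNRNPH3, HNRNPL, LSM14A, PRPF38B, PRPF39 and PTBP2. For HNRNPH3 this holds for the average of its 2 probes. On its own, 1 of them stood at 0.32, 0.52, 0.42, 0.32 and 0.23, above the range only at 10 min. The 11 were HNRNPA0, HNRNPA1, HNRNPAB, HNRNPDL, HNRNPLL, HNRNPR, LSM2, LSM3, LSM4, SNRPD3 and SNRPN. All 20 also passed the test of the mean, which uses the same 5 values and so adds no separate support.

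**Figure D4:**
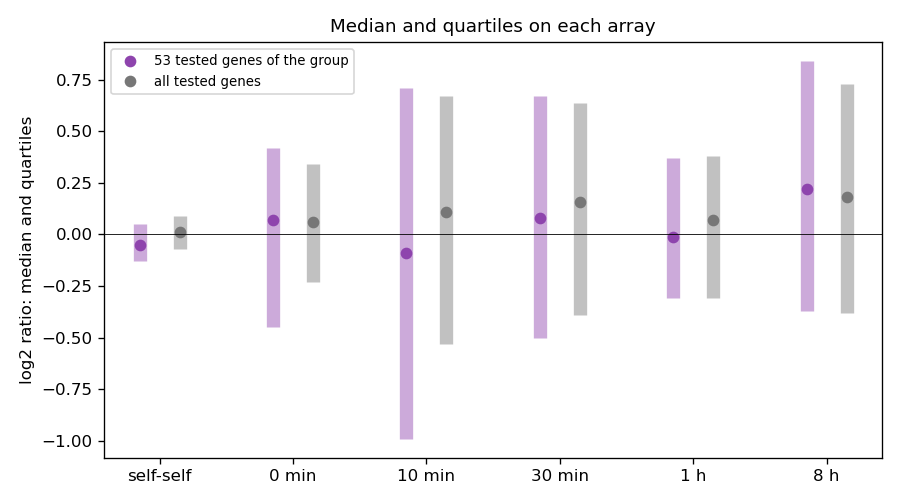
Median (circle) and quartiles (bar) of the log2 ratios (y axis) on each array (x axis), for the 53 members in purple and all 8748 tested genes in grey. At 10 min the members' lower quartile was -0.99 beside -0.53 for all genes, and at 8 h the medians were 0.22 and 0.18.

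The slope over time after actinomycin D asks whether ratios moved along the course, fitted on log2 of 1 + min / 10. With limma no member passed at an adjusted p of 0.05, where 0.0114% of all genes, 1 gene, did. At an unadjusted p under 0.05, 6 members had a positive slope (11.2% of all genes) and 2 a negative one (3.72% of all genes). The slopes closest to the threshold were those of U2AF1 at 0.33 per unit of the time scale (SE 0.06, limma adjusted p = 0.0862), SF3B4 at 0.31 (SE 0.07, adjusted p = 0.108), SNRPD1 at 0.29 (SE 0.07, adjusted p = 0.109) and HNRNPF at 0.39 (SE 0.09, adjusted p = 0.112). Without the 1 h array these 4 passed, at adjusted p-values of 0.0127, 0.0223, 0.0384 and 0.00667, beside 5.91% of all genes, and without the 8 h array none did. From 0 min to 8 h these genes moved by 1.83, 1.61, 1.41 and 2.25, while the median over members was 0.18 and over all genes 0.06. The 8 h ratio was above the 0 min ratio in 33 of 53 members (55.0% of all genes). The largest move the other way was that of SNRPA, -1.20, with a slope of -0.18 (SE 0.07, limma adjusted p = 0.296). This move is an average of spots that disagreed at 0 min. The 2 spots lowest there went from -0.94 to -0.80 and from -0.51 to -0.62, while all other spots fell further.

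Other genes of the splicing pathway, from lists that hold no member, also held calls on both sides, beside 37.0% positive and 25.3% negative among all genes. Of 38 tested spliceosome components outside the rule, 16 were positive, 12 negative and 10 did not pass, with a median of 0.18. Farthest from 0 were SNW1, a protein of the catalytic spliceosome, at 1.37 (SE 0.17), the helicase DDX41 at -1.07 (SE 0.13), RBM22 at 1.04 (SE 0.17) and TXNL4A of the U5 snRNP at -0.98 (SE 0.16). Of 17 genes for snRNP assembly and snRNA export, 6 were positive and 4 negative, with a median of -0.08. They included SART3, which rebuilds the U4/U6 snRNP, at 1.75 (SE 0.27), DDX20 of the SMN complex at 1.24 (SE 0.13), CLNS1A, which holds Sm proteins before assembly, at -1.16 (SE 0.16), and COIL, the scaffold of Cajal bodies, at 1.10 (SE 0.13). Of 28 other splicing regulators 13 were positive and 5 negative, with a median of 0.22, and the farthest from 0 were SFPQ at 1.95 (SE 0.22), RBM5 at 1.60 (SE 0.22), RBM4 at 1.38 (SE 0.17) and QKI at 1.3 (SE 0.14), all positive.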

How the data were processed

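Two-colour arrays measured RNA of GM00156 cells on 6 occasions. Per the labels, the authors subtracted background, averaged spot intensities, divided sample by reference, normalised within each slide by housekeeping genes and dropped ratios of quality below 0.5. If those genes shifted, so would all ratios of that array. The deposited values are log2 ratios; the base was read from the numbers: raised as powers of 2, at least 99.5% on every array gave ratios with 4 decimals (tolerance 0.05 of 1 part in 10000). Scale and base are thus known and no centring is stated. Direction stays unknown, because the labels do not say which channel was the sample and which the reference. Depth does not apply to arrays.

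Each array repeats 1 value at 333 to 534 probes; these were treated as not measured. Probes naming 1 gene in the platform annotation (11304 of 14080; 446 name several, 2330 are not listed) were averaged per gene over those measured on all 5 harvests. For 8748 genes, limma 3.58.1 (R 4.3.3) estimated the mean and the slope against log2(1 + min / 10), centred, with 3 residual degrees of freedom and two-sided tests. The variance of each gene, and so its SE, was moderated by limma towards a value pooled over all genes. The fit was tested on simulated data. Single-probe p-values come from the same fit over all probes.

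The members and gene lists were chosen with earlier results of these data known. Values on every array are given for up to 8 called members per side farthest from 0, the ends of each class, paralog pairs and the decay list, and other members' were added after their values were seen; of other lists, up to 4 called genes farthest from 0. Alternatives were a kept repeated value, centring, equal spread, no slope, median or single probes, both uses of the self-self array, updated symbols and each harvest left out. Averaging spots of an accession first was added after seeing the data.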

Additional observations from a re-analysis of the deposited data

How the results depend on the processing

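Of the 35 members called in the mean, 28 kept their direction and call under every alternative except the self-self array as reference level in the fit, where 0 were called positive and 0 negative. The other 7 were LSM7, PRPF6, PRPF18, PRPF31, SF3A1, SNRPC and SNRPE, and no called member changed sign. Leaving out each array in turn gave 15 to 19 positive and 13 to 17 negative members, a members' median from -0.01 (without the 8 h array) to 0.17, and 0 to 4 slope calls. With arrays scaled to equal spread 1 slope was called, that of SNRPD1, and 21 members were positive and 20 negative. Members that did not pass but did under an alternative fit of gene values were HNRNPK, HNRNPM, LSM1, SF3B2, SF3B4, SNRPA1 and SNRPD1. With single probes, HNRNPD and SF1 had a probe called positive and HNRNPUL1 a probe called negative. HNRNPU and U2AF1L4 had probes called on both sides. With a limit of 1 log2 unit in place of the self-self range, the members above it at 0, 10 and 30 min, 1 h and 8 h were 5, 9, 4, 1 and 11, and those below it 0, 12, 4, 2 and 3; fewer genes pass a wider limit. The cause of the other differences was not tested. The number of arrays limits every value, and signal over background is not given by ratios.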
